A study of Mus musculus with 17 samples.

Results

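Integrins are the receptors that hold a cell to its matrix, and laminins, nidogens, perlecan and agrin are the basement membrane proteins that many of them bind. The 35 genes described here were taken by name: 21 integrin chains (13 alpha, 8 beta), 10 laminin chains, both nidogens, perlecan (Hspg2) and agrin (Agrn). All 35 were found among the 35896 genes of the count tables. No measured value enters the rule itself, but the members were chosen with earlier results of these data known. RNA was sequenced from mouse pancreatic stellate cells (strain C57BL/6J, wild type) of 2 cell lines, PSC4 and PSC5, kept for 4 days in Matrigel, which is a gel made of basement membrane proteins. The 17 libraries fall into 4 groups, each with both lines. There were 5 libraries in control medium, 4 with transforming growth factor beta (TGF-beta) at 20 ng/mL, and 4 in medium conditioned by pancreatic tumour organoids, called CM. The last 4 libraries were in CM with 300 nM neratinib, an irreversible inhibitor of the ERBB receptor tyrosine kinases. The labels number the libraries within a line, and a number goes with a passage of that line. Nothing further says that replicates were separate isolations of cells, so p-values measure the spread between these libraries, which may be partly technical.

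An integrin is a pair of 1 alpha and 1 beta chain, and the pair sets the ligand: collagens, laminins, or proteins that carry the tripeptide arginine-glycine-aspartate (RGD), such as fibronectin. Laminins are cross-shaped trimers of an alpha, a beta and a gamma chain, which nidogens and the heparan sulfate proteoglycans perlecan and agrin tie to the collagen IV network. Stellate cells are the pancreatic cells that turn into matrix-making fibroblasts after injury and in tumours. Some integrins with an alphaV chain are also known to release TGF-beta from its latent form, and TGF-beta is known to control matrix genes. The gel itself holds laminin, nidogen and perlecan protein, none of which enters the RNA counts.

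Library totals lay between 22168953 and 29421447 counts, and 3 counts in 1 library came to 0.101 to 0.137 CPM, the count scaled to a common library size. Of the stellate cell or fibroblast markers, 9 of 9 were above that floor in every library. The labels give the conditioned media a code, T6 or T8, without saying what it stands for, and within CM every T6 library has replicate number 2 and every T8 library number 1. The 10 epithelial markers summed to 142 to 317 CPM in the 4 T6 libraries and to 9.70 to 50.9 CPM in the 4 T8 libraries. The same sum was 15.8 to 23.5 CPM in control medium and 14.8 to 20.3 CPM with TGF-beta. In control medium, the library labelled PSC4 replicate 1 lay nearer to PSC5 than to the other PSC4 libraries in 28 of 32 members tested. The CM and neratinib libraries of that label were not compared in this way. Results that rest on the line or on the 3 libraries labelled PSC4 replicate 1 are also given without them. In RNA from whole cultures, fewer cells of a type and less RNA per cell cannot be told apart.

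Compared per kilobase of exon (RPKM), 11 members were above 10 RPKM in control medium, 12 lay between 1 and 10, and 12 were below 1. Itgb1, the beta chain shared by most matrix receptors, led at 258 ± 8.46 RPKM (SD, n = 5). Next came the linker Nid1 at 81.2 ± 10.5 RPKM, the alphaV partner Itgb5 at 59.4 ± 8.99 RPKM and the laminin gamma chain Lamc1 at 46.5 ± 4.96 RPKM. Hspg2 at 43.7 ± 6.81 RPKM and Lamb2 at 43.2 ± 2.81 RPKM did not differ from Lamc1 beyond these spreads. Nid2, Itga5, Lamb1, Itgav and Agrn followed, between 25.3 and 36.5 RPKM on average. Laminin alpha chains were far lower: summed over the 5 alpha chains the level was 19.0 ± 5.24 RPKM, against 73.8 ± 5.71 RPKM for the 3 beta chains and 46.5 ± 4.95 RPKM for both gamma chains (SD, n = 5). Lama5 made up 43.8% ± 3.02 of the alpha chain level in control medium, Lama4 28.6% ± 3.13 and Lama2 21.7% ± 4.73 (SD, n = 5). Itga4, Lama1 and Lamc3 had too few counts to be tested, with at most 0.727, 0.321 and 0.578 CPM in any library, so 32 of 35 members entered the tests.

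**Figure D1:**
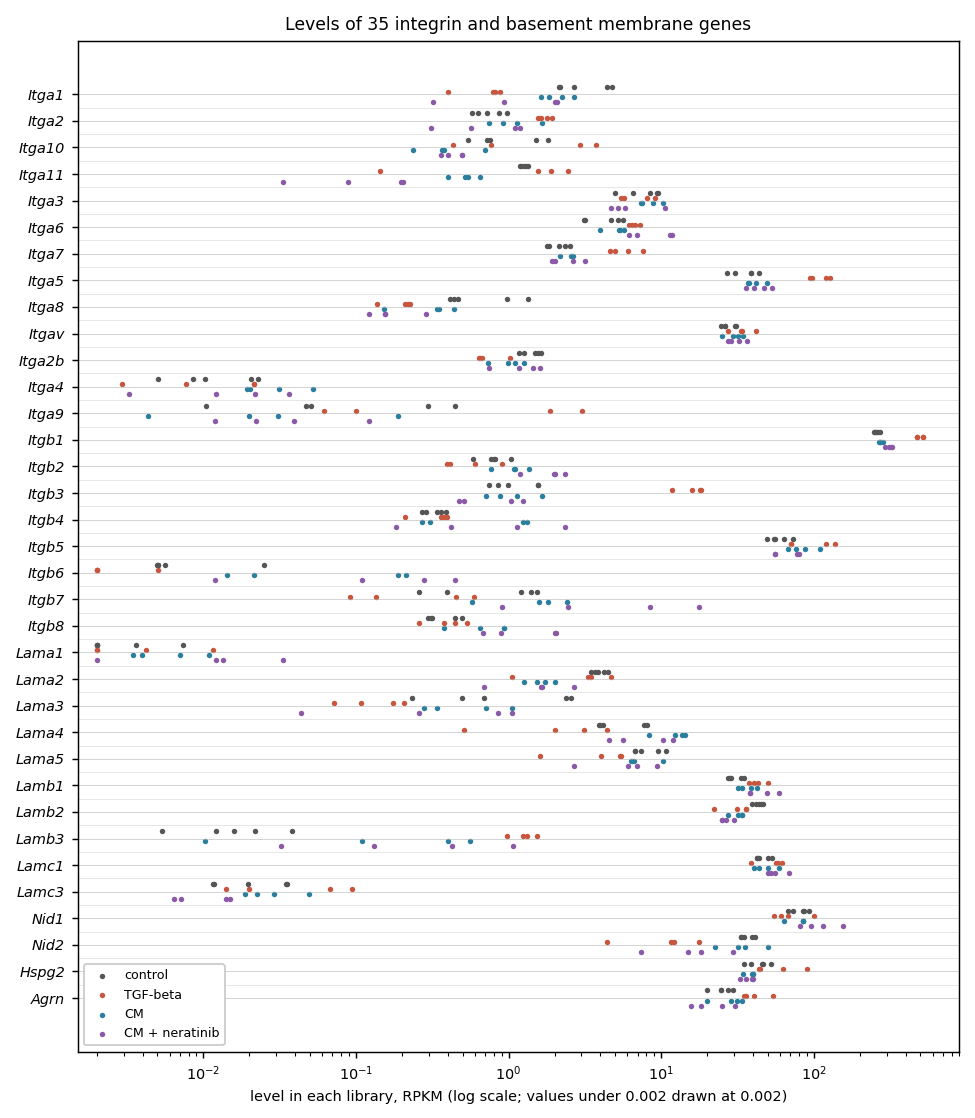
Level of each of the 35 members in each of the 17 libraries, in RPKM on a log scale, coloured by medium. Itgb1 leads in every group, near 258 RPKM in control medium and near 497 RPKM with TGF-beta, while Itga4, Itgb6, Lama1 and Lamc3 lie near the left edge in control medium.

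TGF-beta changed 18 of the 32 tested members, where 40.2% of all 13923 tested genes were called at an adjusted p under 0.05. 11 rose, against 19.7% of all genes, and 7 fell, against 20.5%. Itgb3 and the laminin chain Lamb3 rose the most, and Itga5, Itga7, Itga2 and the common chain Itgb1 also rose. Itga1, Itga8, Lama3, Nid2, Lama5, Itga2b and Lamb2 fell. The median size of the log2 fold change was 0.87 over the tested members and 0.27 over all genes, and 16 members had groups that did not overlap, as had 32.7% of all genes. Of the 18 calls, 10 had a log2 fold change of at least 1 in size, which 12% of all genes had with a call.

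CM changed 5 of 32 members against control medium, with 14.2% of all genes called. Itgb5, Itgb6 and Lamb3 rose, where 7.05% of all genes rose, and Lama2 and Lamb2 fell, where 7.14% fell. The members' median size of log2 fold change was 0.49, against 0.17 over all genes. With a log2 fold change of at least 1 as well, 3 members and 4.0% of all genes were called. With the replicate number as a block 9 members were called, and 23.3% of all genes. Without the T6 libraries 0 members were called at an adjusted p under 0.05 (edgeR) and 4 were at an unadjusted p under 0.05, with 7.58% of all genes called from fewer libraries. Leaving out any single library of these groups also lowered the count, and 5.68% to 12.9% of all genes were then called. It was 1 without control PSC5 replicate 1 or 2 or CM PSC4 replicate 2, and 2 without control PSC4 replicate 2 or 3. It was 3 without control PSC4 replicate 1 or CM PSC5 replicate 1, and 4 without either of the other CM libraries.

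CM with neratinib changed 14 members against control medium, with 43.1% of all genes called. 8 rose (22.2% of all genes rose): Itga6, Itgb1, Itgb2, Itgb6, Itgb7, Itgb8, Lamb1 and Lamb3. 6 fell (20.9% of all genes fell): Itga1, Itga8, Itga11, Lama2, Lamb2 and Nid2. The direct comparison with CM called 4 members, where 20.5% of all genes were called: Itga6, Itgb1 and Itgb2 were higher (10.8% of all genes were higher) and Itga11 was lower (9.63%). Of these calls, Itga11 alone had a log2 fold change of at least 1 in size, which 4.39% of all genes had with a call. The block by replicate number raised that count to 12 members, with 32.8% of all genes called. A fit of these groups alone called 0 members (edgeR, 7 at an unadjusted p under 0.05) and 4.54% of all genes. A fit without the T6 libraries called 0 members (edgeR, 4 at an unadjusted p under 0.05) and 1.31% of all genes. With single libraries left out the count was 1 without CM PSC4 replicate 2, 2 without any other CM library, 7 without neratinib PSC5 replicate 1 and 3 or 4 without another neratinib library. Of all genes, 12.4% to 26.1% were then called.

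CM and TGF-beta were also compared directly, and 15 members differed, with 35.3% of all genes called. 7 were higher in CM (17.8% of all genes) and 8 lower (17.5%). Since CM, neratinib and TGF-beta groups share the same control libraries, their fold changes against control are given side by side without a test of their likeness.

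**Figure D2:**
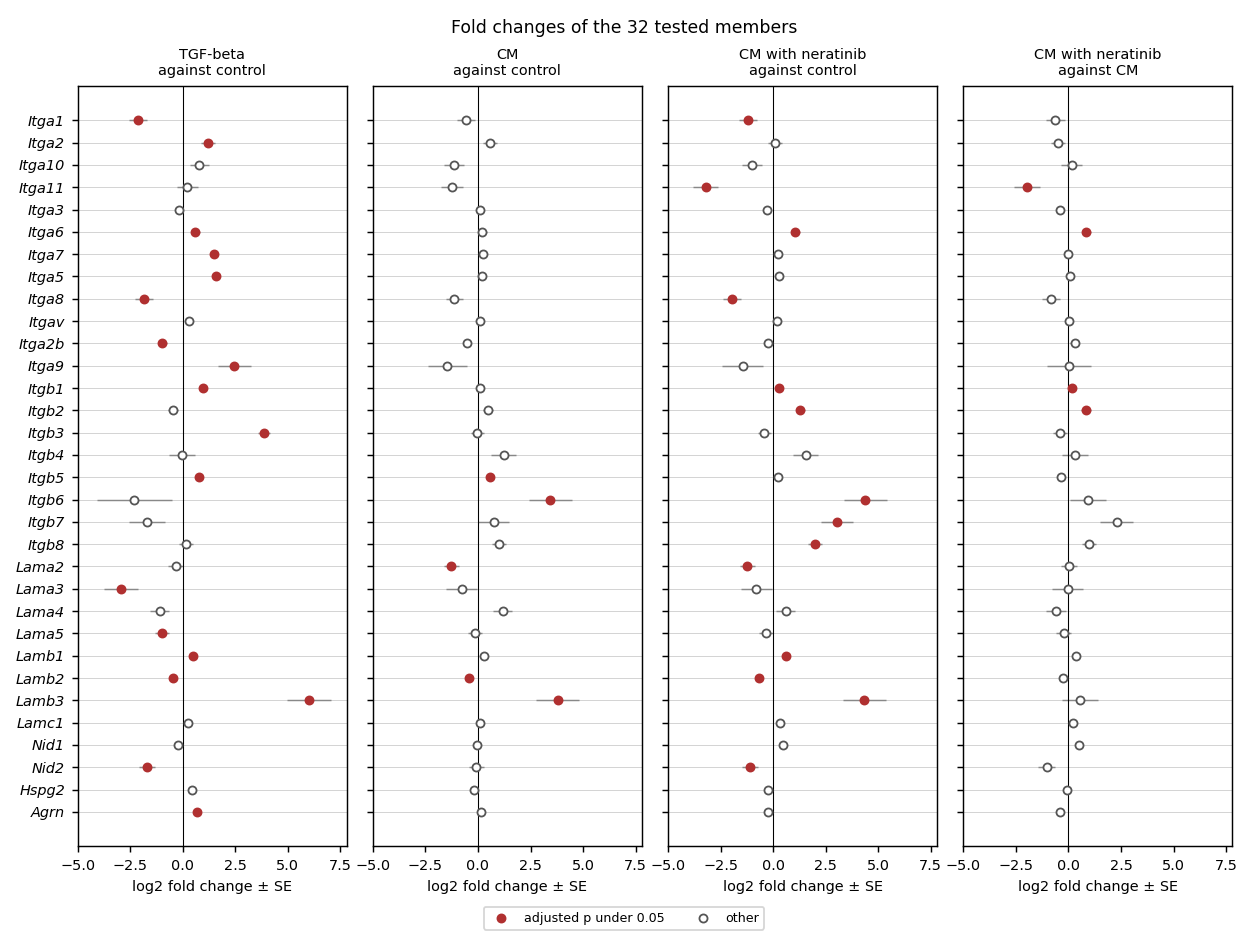
Log2 fold change with its standard error for the 32 tested members in 4 comparisons, filled where the adjusted p was under 0.05. The TGF-beta panel holds 18 filled points, CM 5, CM with neratinib 14 and the direct comparison of neratinib with CM 4.

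Below, values are in CPM and are listed by group, PSC4 libraries before PSC5. The collagen receptor alpha chains pair with Itgb1. Itga1 was at 39.8, 81.9, 89.1, 49.9 and 40.3 CPM in control medium, 16.5, 14.7, 15.2 and 7.44 CPM with TGF-beta, 34.2, 49.8, 41.8 and 30.4 CPM in CM and 5.92, 37.4, 38.8 and 17.3 CPM in CM with neratinib. Every TGF-beta library of Itga1 lay below every control library, and the neratinib libraries ranged from far below control to near its lower edge. Itga1, a receptor chain for collagen IV and fibrillar collagen, fell with TGF-beta (log2 fold change -2.13 ± 0.45, adjusted p = 0.0016) and in CM with neratinib (log2 fold change -1.21 ± 0.44, adjusted p = 0.036). It was not called in CM against control (log2 fold change -0.58 ± 0.42, adjusted p = 0.4). The neratinib call was lost in a fit of these groups alone, without the T6 libraries and when a single library was left out (control PSC4 replicates 2 and 3, control PSC5 replicate 1, neratinib PSC4 replicate 1, neratinib PSC5 replicate 2), up to an adjusted p of 0.12. Itga1 was higher in CM than with TGF-beta (log2 fold change 1.55 ± 0.46, adjusted p = 0.016), a call lost without the T6 libraries and when a single library was left out (TGF-beta PSC5 replicate 2), up to an adjusted p of 0.085. The Itga1 level was 3.24 RPKM in control medium, the highest of this class.

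Itga2 was at 4.13, 6.97, 6.20, 4.49 and 5.14 CPM in control medium, 12.8, 13.8, 11.6 and 11.2 CPM with TGF-beta, 5.33, 11.8, 6.54 and 8.15 CPM in CM and 2.21, 7.86, 4.02 and 8.48 CPM in CM with neratinib. All 4 TGF-beta libraries of Itga2 were above all 5 control libraries. Itga2, the other chain of this class known for binding collagen and, in some cells, laminin, rose with TGF-beta (log2 fold change 1.21 ± 0.32, adjusted p = 0.0076). Its T6 libraries, 7.86 to 11.8 CPM, did not overlap the T8 libraries, 2.21 to 6.54 CPM. Itga10 was at 3.90, 7.90, 9.41, 3.74 and 2.80 CPM in control medium, 15.1, 19.5, 3.96 and 2.24 CPM with TGF-beta, 1.22, 3.63, 1.91 and 1.95 CPM in CM and 2.09, 1.87, 2.55 and 2.57 CPM in CM with neratinib. Itga10 was high in the PSC4 libraries of the TGF-beta group and at 3.96 and 2.24 CPM in PSC5, near the PSC5 control libraries. Its sole call was a lower level in CM than with TGF-beta (log2 fold change -1.95 ± 0.51, adjusted p = 0.0078).

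Itga11 was at 6.68, 6.47, 6.17, 6.14 and 6.84 CPM in control medium, 12.6, 9.72, 7.997 and 0.732 CPM with TGF-beta, 3.33, 2.65, 2.07 and 2.78 CPM in CM and 0.170, 1.01, 1.04 and 0.458 CPM in CM with neratinib. Itga11, a fibroblast receptor for fibrillar collagen, was nearly the same in all 5 control libraries, while every CM library lay below them and every neratinib library below CM. It fell in CM with neratinib against control (log2 fold change -3.22 ± 0.60, adjusted p = 8.1e-04) and against CM (log2 fold change -1.98 ± 0.61, adjusted p = 0.033), and its CM difference from control was not called (log2 fold change -1.24 ± 0.53, adjusted p = 0.13). The call against CM was lost in a fit of these groups alone, without the PSC4 replicate 1 libraries, without the T6 libraries and when a single library was left out (CM PSC4 replicates 1 and 2, CM PSC5 replicates 1 and 2, neratinib PSC4 replicate 1, neratinib PSC5 replicate 2), up to an adjusted p of 0.28. TGF-beta PSC5 replicate 2 stood apart at 0.732 CPM while the other 3 libraries of its group were above control.

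Of the laminin receptor alpha chains, Itga6 was called in 3 comparisons. Itga6 was at 50.4, 27.96, 28.7, 42.1 and 46.8 CPM in control medium, 55.5, 57.9, 61.2 and 65.2 CPM with TGF-beta, 47.9, 36.0, 48.3 and 51.4 CPM in CM and 107, 55.6, 62.9 and 103 CPM in CM with neratinib. The 4 neratinib libraries all exceeded the 4 CM libraries and the 5 control libraries. Itga6, which pairs with Itgb1 or Itgb4, rose in CM with neratinib against control (log2 fold change 1.06 ± 0.20, adjusted p = 9.6e-04) and against CM (log2 fold change 0.85 ± 0.22, adjusted p = 0.014). The call against CM was lost in a fit of these groups alone, without the T6 libraries and when a single library was left out (neratinib PSC4 replicate 1, neratinib PSC5 replicate 2), up to an adjusted p of 0.16, and the neratinib libraries named are the highest of the group. Itga6 also rose with TGF-beta (log2 fold change 0.60 ± 0.20, adjusted p = 0.029), a call lost when a single library was left out (control PSC4 replicates 2 and 3, control PSC5 replicate 1, TGF-beta PSC4 replicates 2 and 3, TGF-beta PSC5 replicate 2), up to an adjusted p of 0.067.

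Itga7 was at 17.3, 20.4, 18.9, 14.4 and 14.8 CPM in control medium, 40.4, 37.6, 61.8 and 49.1 CPM with TGF-beta, 20.7, 21.3, 21.1 and 17.5 CPM in CM and 25.7, 21.5, 16.4 and 15.5 CPM in CM with neratinib. Itga7, the laminin receptor chain best known from muscle, was above every library of the other groups in all 4 TGF-beta libraries. It rose with TGF-beta (log2 fold change 1.496 ± 0.17, adjusted p = 7.3e-06) and was lower in CM than with TGF-beta (log2 fold change -1.24 ± 0.17, adjusted p = 6.9e-05). Itga3, the third chain of this class and the highest in control medium at 7.76 RPKM, was called in none of the 5 group comparisons. Its CPM ranged from 26.7 to 60.6 over all libraries.

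Among the receptors for RGD ligands, Itga5, the alpha chain of the classical fibronectin receptor, separated the TGF-beta group from all others. Itga5 was at 215, 150.1, 133, 193 and 191 CPM in control medium, 463, 482, 589.6 and 635 CPM with TGF-beta, 205, 187, 244 and 182 CPM in CM and 232, 179, 261 and 201 CPM in CM with neratinib. TGF-beta libraries were all at 463 CPM or more and all others at 261 CPM or less. The rise was 3.02-fold (log2 fold change 1.59 ± 0.14, adjusted p = 5.7e-07), and Itga5 was lower in CM than with TGF-beta (log2 fold change -1.40 ± 0.14, adjusted p = 4.2e-06). In CM with neratinib against control it was not called (log2 fold change 0.29 ± 0.13, adjusted p = 0.098), but it was with the replicate block (log2 fold change 0.24, adjusted p = 0.037).

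The common chain Itgb1 had a small spread within each group. Itgb1 was at 1103, 1018, 1075, 1033 and 1041 CPM in control medium, 1937, 2112, 2115 and 1945 CPM with TGF-beta, 1134, 1106, 1157 and 1091 CPM in CM and 1329, 1312, 1260.1 and 1188 CPM in CM with neratinib. The control and CM libraries together spanned 1018 to 1157 CPM, the neratinib libraries lay above all of them, and the TGF-beta libraries were at 1937 to 2115 CPM. Itgb1 rose with TGF-beta (log2 fold change 0.95 ± 0.06, adjusted p = 2.2e-08) and, by a small step, in CM with neratinib against control (log2 fold change 0.27 ± 0.06, adjusted p = 0.0016). The step against CM (log2 fold change 0.18 ± 0.06, adjusted p = 0.046) was lost without a filter on low counts, without a cell line term, in a fit of these groups alone, without the PSC4 replicate 1 libraries, without the T6 libraries and when a single library was left out (CM PSC4 replicates 1 and 2, CM PSC5 replicates 1 and 2, neratinib PSC4 replicates 1 and 2, neratinib PSC5 replicate 1), up to an adjusted p of 0.34. On the length-scaled level, the TGF-beta group held 497 ± 24.5 RPKM of Itgb1 (SD, n = 4).

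The promoter stretches of members that rose and fell with TGF-beta are shown because they move in opposite directions in the same libraries. Each is the 250 bases before a RefSeq start site, 5′ to 3′ along the gene on build GRCm38.p6, with capitals for a match to a searched motif. Itgb1 and Itga5 rose, Lamb3 rose from near the floor, and Itga1 fell. The positions are chr8:128685404-128685653 (plus strand) for Itgb1, chr15:103366792-103367041 (minus strand) for Itga5, chr1:193301993-193302242 (plus strand) for Lamb3 and chr13:115101965-115102214 (minus strand) for Itga1. The Lamb3 stretch precedes the second of its RefSeq starts, which lies inside the longer GENCODE gene model.
Itgb1: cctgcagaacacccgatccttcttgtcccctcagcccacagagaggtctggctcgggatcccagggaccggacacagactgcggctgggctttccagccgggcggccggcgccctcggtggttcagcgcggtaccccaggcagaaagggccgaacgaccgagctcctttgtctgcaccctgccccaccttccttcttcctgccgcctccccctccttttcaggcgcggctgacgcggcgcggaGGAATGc
Itga5: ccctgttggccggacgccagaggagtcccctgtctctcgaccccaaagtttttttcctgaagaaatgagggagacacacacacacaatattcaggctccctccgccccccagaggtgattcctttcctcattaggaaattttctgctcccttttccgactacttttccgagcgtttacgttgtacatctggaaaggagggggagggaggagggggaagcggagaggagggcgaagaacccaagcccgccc
Lamb3: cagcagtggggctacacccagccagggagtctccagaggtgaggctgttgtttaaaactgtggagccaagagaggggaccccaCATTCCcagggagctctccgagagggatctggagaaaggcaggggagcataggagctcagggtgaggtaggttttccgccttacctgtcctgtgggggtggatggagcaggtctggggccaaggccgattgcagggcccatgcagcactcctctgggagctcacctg
Itga1: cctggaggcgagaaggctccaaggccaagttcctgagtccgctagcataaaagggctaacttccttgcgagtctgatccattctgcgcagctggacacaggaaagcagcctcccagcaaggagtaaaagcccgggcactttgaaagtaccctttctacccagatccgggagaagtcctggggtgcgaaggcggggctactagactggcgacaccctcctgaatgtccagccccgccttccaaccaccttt
The motifs searched on both strands were that of AP-1 (TGANTCA), that of TEAD factors (GGAATG) and the palindrome bound by SMAD proteins (GTCTAGAC), over 250 bases before to 50 after each start. Windows were at hand for 24 members, in 28 windows. The TEAD letters were found in 4 of these members, Itga10, Itgb1, Lamb3 and Nid1, and in 14.7% of all 32851 windows. In Itgb1 the match began 7 bases before the start and in Lamb3 167 bases before it. The AP-1 letters were found in Itga3 and Itga9, both past the start, and in 7.81% of all windows, and the SMAD letters in 0 members and 0.213% of windows. The Itga5 and Itga1 stretches hold none of these letters, and a match is only a description of the letters.

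Itgav, the alpha chain of several RGD receptors, stayed in a narrow band. Itgav was at 326, 281, 263, 280.5 and 331 CPM in control medium, 296, 362, 450.4 and 359 CPM with TGF-beta, 345, 268, 371 and 318 CPM in CM and 349, 308, 389 and 293 CPM in CM with neratinib. All groups overlapped, and Itgav was called in none of the 5 comparisons. Its TGF-beta difference (log2 fold change 0.29 ± 0.12, adjusted p = 0.063) was called with the replicate block (log2 fold change 0.32, adjusted p = 0.011).

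Itgb3, Itgb5, Itgb6 and Itgb8 are beta chains that pair with alphaV. Itgb3 was at 5.01, 9.23, 9.23, 5.85 and 4.40 CPM in control medium, 94.0, 108, 69.5 and 106 CPM with TGF-beta, 5.16, 9.70, 6.69 and 4.23 CPM in CM and 3.02, 7.35, 6.10 and 2.80 CPM in CM with neratinib. Itgb3, which with alphaV forms a receptor for vitronectin and other RGD proteins, was at 69.5 CPM or more in each TGF-beta library and at 9.70 CPM or less in every other library. The rise was 14.6-fold (log2 fold change 3.86 ± 0.30, adjusted p = 2.4e-07), and CM and neratinib libraries overlapped the control range. The gene lies at chr11:104608000-104670476 (plus strand, GRCm38, GENCODE M21). Itgb3 was 14.8-fold lower in CM than with TGF-beta (log2 fold change -3.89 ± 0.33, adjusted p = 6.5e-07). Of the summed RPKM of Itgb3, Itgb5, Itgb6 and Itgb8, Itgb3 made up 1.47% to 2.37% in the control libraries and 11.6%, 11.8%, 14.1% and 20.1% in the TGF-beta libraries. Itgb5 held the rest almost alone, with 97.5% ± 0.45 in control medium (SD, n = 5) and 85.3% ± 3.94 with TGF-beta (SD, n = 4).

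Itgb5 itself was at 176 to 258 CPM in control medium, 253 to 487 CPM with TGF-beta, 242 to 388 CPM in CM and 197 to 285 CPM with neratinib. It rose with TGF-beta (log2 fold change 0.75 ± 0.17, adjusted p = 0.0026) and in CM (log2 fold change 0.56 ± 0.17, adjusted p = 0.042). The CM call was lost with upper-quartile scaling, without a cell line term, without the T6 libraries and when a single library was left out (control PSC4 replicates 1, 2 and 3, control PSC5 replicates 1 and 2, CM PSC4 replicate 2, CM PSC5 replicate 1), up to an adjusted p of 0.2.

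Itgb8 was at 3.46, 4.93, 5.46, 3.45 and 3.30 CPM in control medium, 4.92, 5.92, 4.17 and 2.85 CPM with TGF-beta, 7.203, 10.3, 10.3 and 4.19 CPM in CM and 9.92, 22.1, 22.6 and 7.47 CPM in CM with neratinib. Itgb8, whose alphaV pair is known to activate latent TGF-beta, was above every control library in every neratinib library, the PSC5 replicate 2 library being the lowest. It rose 3.92-fold in CM with neratinib against control (log2 fold change 1.97 ± 0.33, adjusted p = 4.0e-04). The differences of CM from control (log2 fold change 1.00 ± 0.33, adjusted p = 0.058) and of neratinib from CM (log2 fold change 0.97 ± 0.35, adjusted p = 0.059) were not called, and both were with the block (adjusted p = 0.0042 and 0.0056).

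Itgb6 was at 0.0397, 0.0358, 0.176, 0.0359 and 0.0355 CPM in control medium, 0, 0.0361, 0 and 0 CPM with TGF-beta, 0.102, 1.34, 0.153 and 1.51 CPM in CM and 0.0851, 1.98, 0.778 and 3.16 CPM in CM with neratinib. Itgb6, the epithelial partner of alphaV that also activates latent TGF-beta, had 9 counts over the 5 control libraries and 1 count over the 4 TGF-beta libraries. It was above 1 CPM only in the 4 T6 libraries. It rose in CM (log2 fold change 3.45 ± 1.03, adjusted p = 0.037) and in CM with neratinib (log2 fold change 4.37 ± 1.03, adjusted p = 0.0036), and it was higher in CM than with TGF-beta (adjusted p = 0.0061), for which no fold is given. Itgb6 was too low to be tested without the T6 libraries. Its call in CM against control was lost when a single library was left out (control PSC4 replicates 1 and 2, control PSC5 replicates 1 and 2, CM PSC4 replicate 2, CM PSC5 replicate 2), up to an adjusted p of 0.15. The T6 mean was 7.15 times the T8 mean, and the epithelial marker sum is high in the same libraries; its part in these results was not tested.

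Itgb7 was at 3.90, 0.715, 1.09, 4.24 and 3.33 CPM in control medium, 0.376, 0.253, 1.63 and 1.26 CPM with TGF-beta, 6.66, 1.59, 5.01 and 4.36 CPM in CM and 49.1, 2.49, 6.79 and 23.4 CPM in CM with neratinib. Itgb7, a beta chain known from lymphocytes, was highest in neratinib PSC4 replicate 1 and PSC5 replicate 2. It rose in CM with neratinib against control (log2 fold change 3.04 ± 0.77, adjusted p = 0.0056), a call lost without the first of these (adjusted p = 0.076). It was higher in CM than with TGF-beta (log2 fold change 2.43 ± 0.88, adjusted p = 0.043), a call lost when a single library was left out (TGF-beta PSC4 replicates 2 and 3, TGF-beta PSC5 replicate 2, CM PSC4 replicate 1, CM PSC5 replicates 1 and 2), up to an adjusted p of 0.12. With the block, it was also called against CM (log2 fold change 1.82, adjusted p = 0.0067) and lower with TGF-beta (log2 fold change -1.25, adjusted p = 0.046). Itgb2 was at 2.35, 2.50, 3.17, 2.44 and 1.77 CPM in control medium, 1.84, 2.74, 1.20 and 1.26 CPM with TGF-beta, 4.15, 3.32, 2.33 and 3.39 CPM in CM and 6.13, 6.07, 3.63 and 7.19 CPM in CM with neratinib. Itgb2, the beta chain of leukocyte integrins, was above all control and all CM libraries except CM PSC4 replicate 1 in every neratinib library. It rose against control (log2 fold change 1.29 ± 0.22, adjusted p = 5.0e-04) and against CM (log2 fold change 0.82 ± 0.24, adjusted p = 0.025) and was higher in CM than with TGF-beta (log2 fold change 0.93 ± 0.24, adjusted p = 0.0077). The call against CM was lost without a cell line term, in a fit of these groups alone, without the PSC4 replicate 1 libraries, without the T6 libraries and when a single library was left out (CM PSC4 replicate 2, CM PSC5 replicate 1, neratinib PSC5 replicate 2), up to an adjusted p of 0.28.

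Markers of leukocytes stand beside Itgb2 and Itgb7 as follows. Of 10 leukocyte markers, Adgre1, Cd3e and Tyrobp were at 0 counts in all 17 libraries and Ptprc had at most 1 count. Their sum was 3.74 to 5.94 CPM in 16 libraries and 14.9 CPM in neratinib PSC4 replicate 1, where Cd68 made up most of it at 12.3 CPM. That library also held the highest endothelial sum, 31.97 CPM, of which Vwf was 29.8 CPM, while Cldn5 was at 0 in every library.

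Itga8 was at 3.46, 7.19, 9.90, 3.05 and 3.23 CPM in control medium, 1.54, 1.63, 1.68 and 1.02 CPM with TGF-beta, 3.23, 1.13, 2.56 and 2.52 CPM in CM and 1.15, 0.895, 2.12 and 1.15 CPM in CM with neratinib. Itga8, the receptor chain for nephronectin, was below all control libraries in all TGF-beta and all neratinib libraries. It fell with TGF-beta (log2 fold change -1.83 ± 0.42, adjusted p = 0.0029) and in CM with neratinib (log2 fold change -1.95 ± 0.43, adjusted p = 0.0024). Itga2b, the platelet fibrinogen receptor chain, was at 6.41 to 8.90 CPM in control medium and 3.49 to 5.59 CPM with TGF-beta, without overlap, and fell (log2 fold change -0.97 ± 0.21, adjusted p = 0.0019). Of the platelet markers Pf4, Gp1ba and Gp9 had at most 1 count in any library, while Gp1bb reached 205 counts with TGF-beta; their part in the result was not tested. Itga2b was also called lower in CM with the block (log2 fold change -0.54, adjusted p = 0.031).

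Itga9 was at 0.0795, 2.29, 3.42, 0.359 and 0.390 CPM in control medium, 14.4, 23.4, 0.473 and 0.773 CPM with TGF-beta, 0.238, 1.45, 0.153 and 0.0335 CPM in CM and 0.170, 0.934, 0.303 and 0.0916 CPM in CM with neratinib. Itga9, a receptor chain for tenascin and osteopontin, was above 1 CPM only in PSC4 libraries, and the highest values were both TGF-beta PSC4 libraries. It was called higher with TGF-beta (log2 fold change 2.46 ± 0.80, adjusted p = 0.022) and lower in CM than with TGF-beta (log2 fold change -3.92 ± 0.95, adjusted p = 0.0049), but the control and TGF-beta groups overlapped. The first call was lost without a cell line term and when a single library was left out (control PSC4 replicate 2, TGF-beta PSC4 replicate 3), up to an adjusted p of 0.097. The related chain Itga4 stayed at or below 0.727 CPM.

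Itgb4, the partner of Itga6 in the hemidesmosomes of epithelium, was at 1.48 to 2.75 CPM in the libraries with TGF-beta and at 1.90 to 2.74 CPM in control medium. It was at 7.98 to 16.4 CPM in the T6 libraries and 1.28 to 2.94 CPM in the T8 libraries, a ratio of means of 5.14. Itgb4 was called in none of the 5 comparisons (log2 fold change 1.54 ± 0.61, adjusted p = 0.052 in CM with neratinib against control). Without T6 its log2 fold change there was -0.22.

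**Figure D3:**
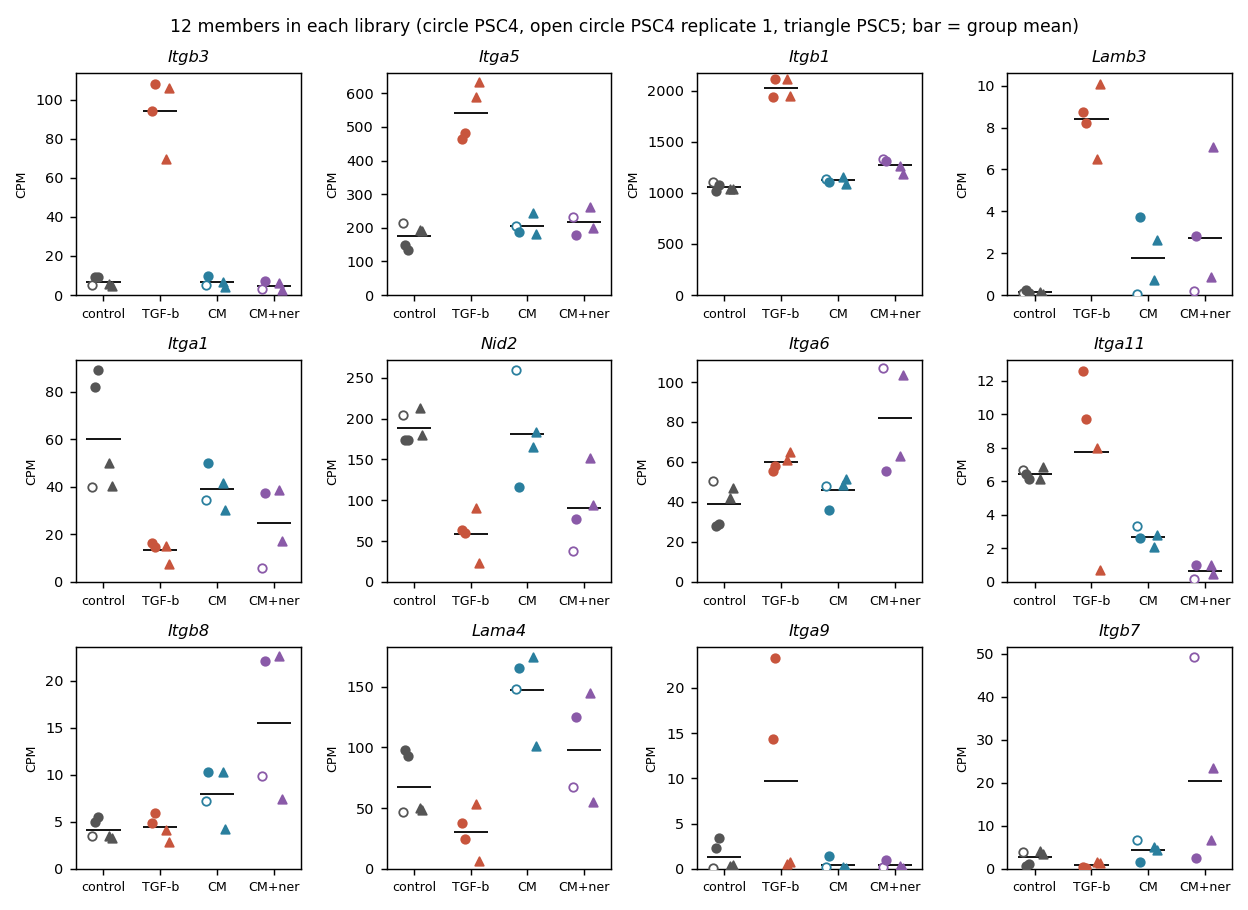
CPM of 12 members in each library, by medium, with circles for PSC4, open circles for PSC4 replicate 1, triangles for PSC5 and a bar at the group mean. Itgb3, Itga5, Itgb1 and Lamb3 separate the TGF-beta group from control without overlap, and Itga9 is high in both PSC4 libraries of that group alone.

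The laminin beta chains moved apart. Lamb3 was at 0.0795, 0.250, 0.106, 0.144 and 0.0355 CPM in control medium, 8.75, 8.20, 6.49 and 10.1 CPM with TGF-beta, 0.0680, 3.70, 0.727 and 2.65 CPM in CM and 0.213, 2.80, 0.865 and 7.06 CPM in CM with neratinib. Lamb3, the beta chain of the epithelial anchoring laminin, had 1 to 7 counts in the control libraries, and every TGF-beta library was between 6.49 and 10.1 CPM. The rise with TGF-beta was fitted at 64.4-fold from a base near the floor (log2 fold change 6.01 ± 1.03, adjusted p = 3.2e-04), and the call held in all 19 alternatives tried for it. The gene lies at chr1:193207699-193343878 (plus strand, GRCm38, GENCODE M21). The epithelial marker sums of these groups overlapped: 14.8 to 20.3 CPM with TGF-beta and 15.8 to 23.5 CPM in control medium. The number of the 10 markers above the floor of 3 counts did not overlap: 6 to 7 with TGF-beta and 4 to 5 in control medium. The part of these markers in the TGF-beta result was not tested. Lamb3 also rose in CM (log2 fold change 3.79 ± 1.02, adjusted p = 0.025) and in CM with neratinib (log2 fold change 4.34 ± 1.04, adjusted p = 0.004). There the T6 libraries held 2.65 to 7.06 CPM and the T8 libraries 0.068 to 0.865 CPM, a ratio of means of 8.66. The CM call was also lost without control PSC4 replicate 3, control PSC5 replicate 1 or 2, or CM PSC4 replicate 2. Without T6 both calls were lost, with log2 fold changes of 1.44 (adjusted p = 0.28) and 1.93 (adjusted p = 0.075). The part of the epithelial markers in the CM results was not tested.

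Lamb1 was at 273 to 344 CPM in control medium, 376 to 495 CPM with TGF-beta, 315 to 422 CPM in CM and 381 to 589 CPM with neratinib. It rose with TGF-beta (log2 fold change 0.50 ± 0.13, adjusted p = 0.0075) and in CM with neratinib (log2 fold change 0.62 ± 0.13, adjusted p = 0.0021), in both cases with no overlap with control. Lamb2 went the other way, from 238 to 281 CPM in control medium to 135 to 220 CPM with TGF-beta, 167 to 206 CPM in CM and 152 to 182 CPM with neratinib. It fell with TGF-beta (log2 fold change -0.45 ± 0.11, adjusted p = 0.0034), in CM (log2 fold change -0.43 ± 0.11, adjusted p = 0.017) and in CM with neratinib (log2 fold change -0.67 ± 0.11, adjusted p = 2.5e-04). The CM call of Lamb2 was lost without the T6 libraries (adjusted p = 0.15). Of the beta chain RPKM, Lamb1 made up 41.3% ± 1.86 in control medium (SD, n = 5). Its share was 56.9% ± 4.86 with TGF-beta, 53.3% ± 2.44 in CM and 62.7% ± 4.11 in CM with neratinib (SD, n = 4 each). The gamma chain common to most laminins is Lamc1. Lamc1 was at 351, 441, 416, 362 and 354 CPM in control medium, 512, 484, 469 and 319.6 CPM with TGF-beta, 362, 491, 418 and 335 CPM in CM and 434, 565, 458 and 414 CPM in CM with neratinib. Lamc1 was called in none of the 5 comparisons, and with the block it was called in CM with neratinib against control (log2 fold change 0.31, adjusted p = 0.0022) and against CM (0.23, adjusted p = 0.025).

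The laminin alpha chains split by medium. Lama4 was at 47.0, 97.7, 92.7, 50.2 and 48.2 CPM in control medium, 37.7, 24.4, 53.1 and 6.14 CPM with TGF-beta, 148, 165, 174 and 101 CPM in CM and 67.7, 125, 145 and 54.7 CPM in CM with neratinib. Lama4, a mesenchymal and vascular chain, was above all control libraries in every CM library and at 53.1 CPM or less with TGF-beta. It was higher in CM than with TGF-beta (log2 fold change 2.27 ± 0.50, adjusted p = 0.0024). Neither the difference of CM from control (log2 fold change 1.17 ± 0.45, adjusted p = 0.098) nor that of TGF-beta (log2 fold change -1.10 ± 0.47, adjusted p = 0.075) was called, but both were with the block (adjusted p = 0.020 and 0.0043). Lama2 was at 60.2, 73.6, 63.2, 69.1 and 56.8 CPM in control medium, 57.0, 53.8, 76.4 and 17.2 CPM with TGF-beta, 25.2, 32.7, 20.7 and 28.3 CPM in CM and 11.3, 43.9, 26.5 and 27.2 CPM in CM with neratinib. Lama2, the chain of muscle and interstitial laminin, was below all control libraries in all CM and all neratinib libraries. It fell in CM (log2 fold change -1.26 ± 0.37, adjusted p = 0.034) and in CM with neratinib (log2 fold change -1.23 ± 0.37, adjusted p = 0.015). The CM call was lost without the T6 libraries and when a single library was left out (control PSC4 replicates 2 and 3, control PSC5 replicates 1 and 2, CM PSC4 replicates 1 and 2, CM PSC5 replicates 1 and 2), up to an adjusted p of 0.11.

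As a share of the summed alpha chain RPKM, Lama4 made up 26.0% to 32.5% in control medium and 59.9%, 50.5%, 64.3% and 48.0% in the CM libraries. With neratinib it made up 62.0%, 44.0%, 57.7% and 34.5%, and with TGF-beta 25.5%, 21.2%, 30.2% and 15.7%. Lama2 made up 16.3% to 27.5% in control medium, 28.5% to 34.5% with TGF-beta, 5.64% to 9.93% in CM and 7.66% to 12.7% with neratinib. The shares of both chains in CM did not overlap those in control medium, and no test of these shares was made, since they are built from the members themselves.

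**Figure D4:**
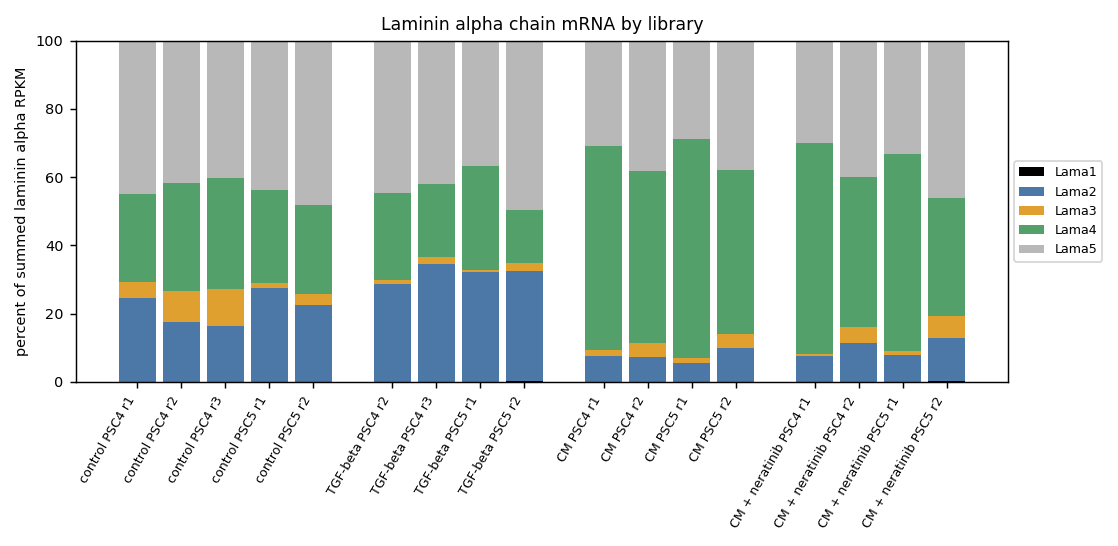
Make-up of the laminin alpha chain level in each library, as percent of the summed RPKM of Lama1 to Lama5. Lama4 (green) takes 48.0% to 64.3% in CM and 26.0% to 32.5% in control medium, and Lama2 (blue) 5.64% to 9.93% and 16.3% to 27.5%.

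Lama3 was at 7.39, 25.7, 27.4, 2.51 and 5.32 CPM in control medium, 1.88, 2.20, 1.16 and 0.773 CPM with TGF-beta, 3.64, 11.3, 2.98 and 7.61 CPM in CM and 0.468, 11.2, 2.77 and 9.16 CPM in CM with neratinib. Lama3, the alpha chain of the epithelial anchoring laminin, was highest in control PSC4 replicates 2 and 3, and every TGF-beta library was below every control library. It fell with TGF-beta (log2 fold change -2.94 ± 0.81, adjusted p = 0.0095) while its trimer partner Lamb3 rose. Its higher level in CM than with TGF-beta (log2 fold change 2.17 ± 0.81, adjusted p = 0.049) was lost with RLE scaling, with upper-quartile scaling, without a cell line term, without the T6 libraries and when a single library was left out (TGF-beta PSC4 replicates 2 and 3, TGF-beta PSC5 replicates 1 and 2, CM PSC4 replicate 2, CM PSC5 replicates 1 and 2), up to an adjusted p of 0.31. T6 libraries held 7.61 to 11.3 CPM of Lama3 and T8 libraries 0.468 to 3.64 CPM. Lama5, the widespread chain of mature basement membranes, was at 76.6 to 123 CPM in control medium and 18.3 to 62.1 CPM with TGF-beta. It fell with TGF-beta (log2 fold change -0.98 ± 0.34, adjusted p = 0.033), and this call was lost when a single library was left out (control PSC4 replicates 2 and 3, control PSC5 replicate 2, TGF-beta PSC4 replicate 3, TGF-beta PSC5 replicate 2), up to an adjusted p of 0.086.

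Of the nidogens, which link laminin to collagen IV, Nid2 was called in 3 comparisons and Nid1 in none. Nid2 was at 204, 174, 173, 213 and 180.2 CPM in control medium, 63.0, 59.7, 91.0 and 22.9 CPM with TGF-beta, 259.8, 116, 165 and 183 CPM in CM and 38.3, 77.0, 152 and 94.5 CPM in CM with neratinib. Nid2 was below all control libraries in every TGF-beta and every neratinib library, and CM overlapped control. The gene lies at chr14:19751265-19811787 (plus strand, GRCm38, GENCODE M21). It fell with TGF-beta (log2 fold change -1.69 ± 0.38, adjusted p = 0.0024) and in CM with neratinib (log2 fold change -1.12 ± 0.37, adjusted p = 0.026), and was higher in CM than with TGF-beta (log2 fold change 1.61 ± 0.39, adjusted p = 0.0047). The neratinib call was lost without the PSC4 replicate 1 libraries, without the T6 libraries and when a single library was left out (neratinib PSC4 replicates 1 and 2, neratinib PSC5 replicate 2), up to an adjusted p of 0.16. Nid1 was at 599, 507, 471, 649 and 593 CPM in control medium, 469, 421, 701 and 384 CPM with TGF-beta, 592, 442, 589 and 589 CPM in CM and 1075, 562, 666 and 799.7 CPM in CM with neratinib. Nid1 overlapped control in every group and was called in none of the 5 comparisons, although neratinib PSC4 replicate 1 reached 1075 CPM. With the block, Nid1 was called higher with neratinib than in CM (log2 fold change 0.47, adjusted p = 0.036). Of the summed nidogen RPKM, Nid2 made up 28.96% to 33.1% in control medium, 7.43% to 15.98% with TGF-beta, 26.1% to 37.1% in CM and 4.56% to 23.5% with neratinib.

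Hspg2 was at 655, 669, 499, 558 and 747 CPM in control medium, 897, 636, 1286 and 622 CPM with TGF-beta, 570.3, 575, 562 and 493 CPM in CM and 468, 517, 568 and 564 CPM in CM with neratinib. Perlecan (Hspg2) was highest in TGF-beta PSC5 replicate 1, and the TGF-beta and control groups overlapped. Its TGF-beta difference was not called (log2 fold change 0.44 ± 0.18, adjusted p = 0.06) and was with the block (adjusted p = 0.038), and it was lower in CM than with TGF-beta (log2 fold change -0.64 ± 0.19, adjusted p = 0.016). That call was lost in a fit of these groups alone, without the T6 libraries and when a single library was left out (TGF-beta PSC5 replicate 1, CM PSC5 replicate 2), up to an adjusted p of 0.13. Agrn was at 230.1, 228, 184, 276 and 256 CPM in control medium, 376, 322, 503 and 332 CPM with TGF-beta, 313, 187, 293 and 267 CPM in CM and 169, 146, 285 and 234 CPM in CM with neratinib. Agrin was above all control libraries in every TGF-beta library. It rose with TGF-beta (log2 fold change 0.67 ± 0.16, adjusted p = 0.0036) and was lower in CM than with TGF-beta (log2 fold change -0.53 ± 0.17, adjusted p = 0.024). The latter call was lost without a cell line term, in a fit of these groups alone, without the T6 libraries and when a single library was left out (TGF-beta PSC4 replicate 2, TGF-beta PSC5 replicate 1, CM PSC4 replicate 2, CM PSC5 replicates 1 and 2), up to an adjusted p of 0.25.

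TGF-beta PSC5 replicate 2 was the lowest library of its group for several basement membrane members: Lama2 17.2 CPM, Lama4 6.14 CPM, Lama5 18.3 CPM and Nid2 22.9 CPM. Its Itgb3, Itga5 and Lamb3 were within or above the range of the other 3 libraries. Without it, 18 members were called in TGF-beta against control. Leaving out any single library of these groups called 33.7% to 39.7% of all genes.

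Of the 32 tested members, 8 had T6 and T8 libraries that did not overlap, as had 4.98% of all tested genes (2.95% higher and 2.03% lower in T6). They were Itga2, Itgb4, Itgb6, Lama2, Lama3 and Lamb3, higher in T6, and Itga5 and Itgav, lower in T6 at 0.79 and 0.82 times the T8 mean. The T6 and T8 libraries differ in replicate number as well, so medium code and passage cannot be told apart.

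**Figure D5:**
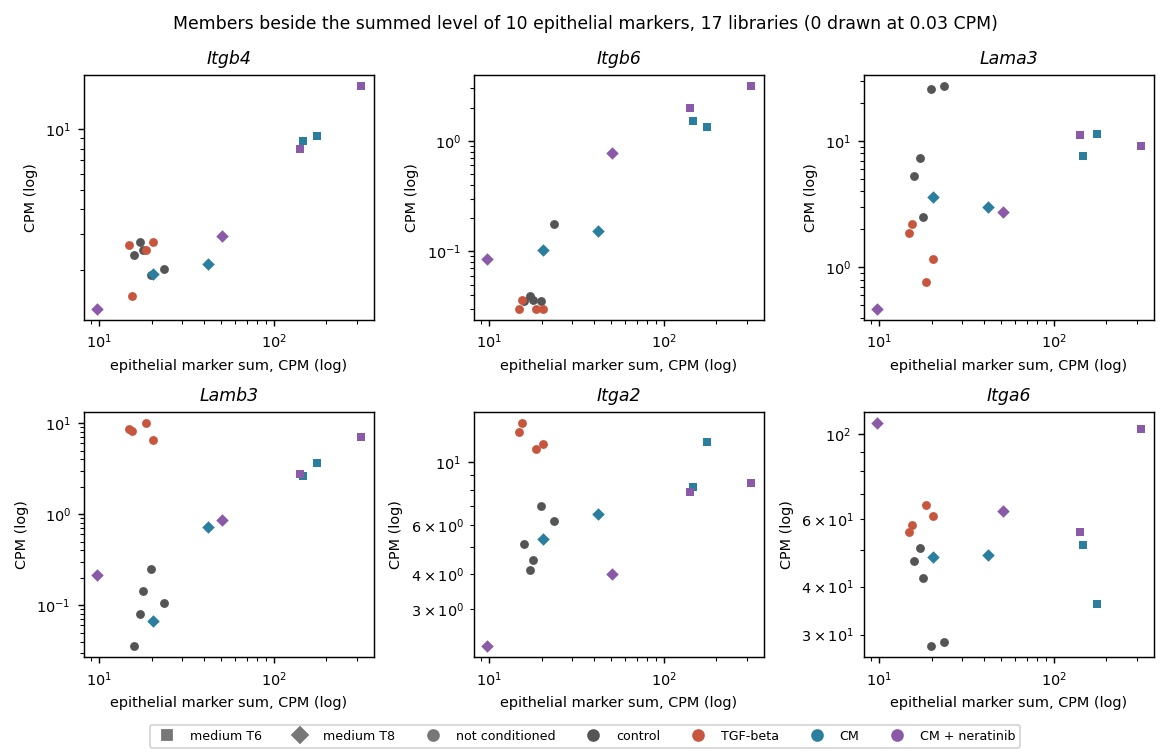
CPM of 6 members against the summed CPM of 10 epithelial markers in 17 libraries, both on log scales, squares for T6 medium and diamonds for T8. Itgb4 and Itgb6 are highest in the 4 T6 libraries at 142 to 317 CPM of the marker sum, Lamb3 is as high with TGF-beta (red) at 14.8 to 20.3 CPM, and Itga6 shows no such order.

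The cell lines differed in 1 member over all 17 libraries, Itga9, lower in PSC5 (log2 fold change -3.14 ± 0.70, adjusted p = 0.029), where 6.97% of all genes were called, 2.18% higher and 4.78% lower in PSC5. This call was lost, up to an adjusted p of 0.072, when any control library but PSC4 replicate 1, any TGF-beta library, CM PSC4 replicate 2, CM PSC5 replicate 2 or neratinib PSC4 replicate 2 was left out. The labels give passages 23 to 25 for PSC4 and 27 to 28 for PSC5, so line and passage cannot be told apart in any of these results. Without the 3 PSC4 replicate 1 libraries, 17 of 32 members were called, with 42.6% of all genes. Of these, 8 were higher in PSC5, among them Itgb7 (log2 fold change 2.10), Agrn (0.47), Itga6 (0.45) and Itga5 (0.36). 9 were lower in PSC5, among them Itga9 (-3.77), Lama3 (-1.62), Itga10 (-1.36) and Itgb3 (-0.59). In control medium the library labelled PSC4 replicate 1 was nearer to the PSC5 mean than to the mean of the other PSC4 libraries in 28 of 32 tested members. This was not counted over all genes. A test of whether an effect differed between the lines (edgeR) was made for TGF-beta, for CM and for neratinib against CM. It called 0 of all 13923 genes each time, and so 0 members. Of the members, 1, 0 and 1 were at an unadjusted p under 0.05. DESeq2 called 1 of them for TGF-beta, Itga7.

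The adaptor proteins that link integrins to actin were followed in a list of 24 genes, all tested. Single genes of this list and of those below are given from the main fit only. Their calls were not followed through the alternatives, as those of members were. With TGF-beta 8 rose and 1 fell: talin Tln2 (log2 2.06), Parvb (log2 1.23) and the migfilin gene Fblim1 (log2 1.22) rose, and Lims2 (log2 -2.23) fell. That is 37.5% of the list, near the 40.2% of all genes called. The median log2 fold change of this list was 0.12 with TGF-beta, against -0.02 over all genes. In CM 3 rose and 4 fell, 29.2% of the list against 14.2% of all genes. Fblim1 rose (log2 0.97), and vinculin Vcl (log2 -0.79) and Tln2 (log2 -0.74) fell. With neratinib against control 5 rose and 7 fell (50% of the list, 43.1% of all genes), led by tensin Tns1 (log2 -1.02) and Vcl (log2 -0.99). Against CM 4 rose, Parvb (log2 0.80) and Tln2 (log2 0.48) among them, and 1 fell, Tns3 (log2 -0.46), which is 20.8% of the list and near the 20.5% of all genes. Fermt1, the epithelial kindlin, had 0 counts in every control library and averaged 1.90 ± 2.07 CPM in CM (SD, n = 4), so no fold is given. Only 3 of the 4 CM libraries were above 0 for Fermt1, and the groups overlapped.

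A list of 27 further basement membrane genes and non-integrin receptors had 25 tested members. With TGF-beta 10 rose and 6 fell (64% of those tested, against 40.2% of all genes). Col15a1 rose (log2 5.59), as did Col7a1 (log2 3.53), the anchoring fibril collagen. The collagen IV chain Col4a6 fell (log2 -2.91), and another, Col4a3, rose (log2 2.81) to a mean of 0.766 CPM. The list's median log2 fold change was 0.55 with TGF-beta. In CM 2 rose and 5 fell (28% against 14.2% of all genes), among the latter Frem1 (log2 -2.11) and Col4a6 (log2 -1.24). With neratinib against control 2 rose and 11 fell (52% against 43.1% of all genes), Frem1 (log2 -2.94) and Smoc2 (log2 -3.93) among them. Against CM, 0 rose and 1 fell, Npnt (log2 -1.06, adjusted p = 0.043 by edgeR, groups overlapping), which encodes the Itga8 ligand nephronectin. That is 4% of the list, below the 20.5% of all genes called there.

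Of 18 integrin ligands outside the basement membrane, 17 were tested. With TGF-beta 10 rose and 3 fell, where 19.7% of all genes rose and 20.5% fell: Col1a1 (log2 2.13) and osteopontin Spp1 (log2 2.11) rose, and the Itgb2 ligand Icam1 fell (log2 -2.75). The median log2 fold change of these ligands was 1.25 with TGF-beta and -1.02 with neratinib against control. In CM 4 rose and 1 fell (29.4% of those tested, against 14.2% of all genes), with Spp1 (log2 1.80), tenascin Tnc (log2 1.07) and the Itgb7 ligand Madcam1 (log2 2.30) higher. With neratinib against control 2 rose and 10 fell (22.2% of all genes rose and 20.9% fell), thrombospondin Thbs1 (log2 -1.82) and periostin Postn (log2 -2.60) among the latter. Against CM 0 rose and 5 fell, where 10.8% of all genes rose and 9.63% fell: Madcam1 (log2 -3.75), Thbs2 (log2 -1.43) and fibronectin Fn1 (log2 -0.58) were among them. For Fn1 the groups overlapped (adjusted p = 0.037, edgeR).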

How the data were processed

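RNA was measured in 17 libraries. Per the submitters' processing notes, the authors used Salmon 1.4.0, DESeq 2 and the build GRCm38 (mm10), and the deposited values are expected counts (estimated counts) per Ensembl gene, not scaled to depth or length; the annotation release is not given in the sources used here. Counts were rounded to whole numbers. The quasi-likelihood test of edgeR 4.0.16 (R 4.3.3) was fitted over all 17 libraries with group and cell line as terms, TMM factors and the filterByExpr filter (10 counts, 15 in total), leaving 13923 genes for testing. A call is an adjusted p under 0.05 by the method of Benjamini and Hochberg, and the error given with a log2 fold change is its standard error. CPM are scaled by TMM-corrected totals of the tested genes, and RPKM are CPM per kilobase of GENCODE M21 exons. The fit was tested on simulated data. Members and lists were chosen with earlier results of these data known.

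Values in every library were given for members called with a log2 fold change of at least 1 in size where the higher group averaged 1 CPM or more, and for Itgb1, Itgav, Lamc1, Nid1, Hspg2 and Agrn. From each pathway list, genes were named among the 4 largest called changes per comparison. Alternatives were other scalings and filters, DESeq2 1.42.0, models without the line, with a replicate block or with only the groups compared, other handling of the PSC4 replicate 1 libraries, a fold limit, and leaving out each library. Removal of T6 libraries was added after seeing the data. Libraries of the same line and number (the labels give them the same passage) deviated together from their group means in 22 of 22 pairs. Correlations over genes were 0.120 to 0.635 in these pairs. They exceeded 0.1 in 14 of 32 pairs of the same line with other numbers and in 14 of 54 pairs of different lines. The replicate block uses the numbers to pair the samples. The main fit, which gives the calls unless stated, does not pair them. No libraries agreed within counting noise. Promoters came from RefSeq on GRCm38.p6. Counting floors cover counting error only.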

Additional observations from a re-analysis of the deposited data

Results flagged for a closer look

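A library far from the others of its group was found in 7 of 128 combinations of member and group, and chance alone gives about 1 in 20. Itga2b was at 5.59 CPM in TGF-beta PSC5 replicate 1, against 3.49 to 3.65 CPM in the other libraries. In CM PSC4 replicate 2, a T6 library, 3 members stood apart: Itga9 at 1.45 CPM (others 0.0335 to 0.238), Lama5 at 118 CPM (others 72.0 to 75.4) and Nid1 at 442 CPM (others 589 to 592). Hspg2 was at 493 CPM in CM PSC5 replicate 2, against 562 to 575 CPM. Itgb6 was at 0.176 CPM (5 counts) in control PSC4 replicate 3 and at 0.0361 CPM (1 count) in TGF-beta PSC4 replicate 3, both too few counts to read further.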

How the results depend on the processing

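Alternatives in which a member was too low to be tested, as Itgb6 was without T6, do not count as a lost call here. Of 56 called results of single members, 35 kept their call in every alternative that tested them, the fold limit aside. Of the others, 21 lost it in at least 1 of these, and 0 of the 56 changed sign. The fold limit removed 20 of the 56, and 24 kept their call in every such alternative with that limit included. Of 104 results not called, 42 were called in some alternative. Counts of called members moved by more than 1.5 times as follows. With a log2 fold change of at least 1 as well, 10 members were called for TGF-beta against control (12% of all genes), 3 for CM against control (4.0%) and 1 for neratinib against CM (4.39%). The replicate block called 9 for CM against control and 12 for neratinib against CM, and all the members of the main calls (5 and 4) were among them; beyond the results printed above it changed the calls of Itgb6 with TGF-beta (log2 -2.68, adjusted p = 0.041), Itgb5 (0.28) with neratinib against control, and in CM against control Lamb1 (0.28). For neratinib against CM it added Itga1 (-0.84), Itgb5 (-0.34), Lamb1 (0.32) and Lamb2 (-0.25), and for CM against TGF-beta Itga6 (-0.55), Itgb8 (1.02), Lama5 (1.09) and Lamb3 (-2.15). With PSC4 replicate 1 counted with PSC5, 9, 8 and 18 members were called for CM against control, neratinib against CM and PSC5 against PSC4. With these libraries removed, the last 2 of these counts were 2 and 17, and 42.6% of all genes were called for the lines. DESeq2 called 7 for neratinib against CM, 5 for the lines and 1 (Itga7) for a line difference in the TGF-beta effect. For neratinib against CM, 2 were called with no cell line term and 0 with only the groups compared (4.54% of all genes). Where no share of all genes is given for a fit, its count is not read as a result about the members. Without T6, 0 were called for CM against control (7.58% of all genes) and 0 for neratinib against CM (1.31%). Fewer libraries entered that fit.

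Leaving out each library in turn gave 15 to 19 members for TGF-beta against control, 1 to 4 for CM against control, 13 to 16 for neratinib against control, 1 to 7 for neratinib against CM, 12 to 14 for CM against TGF-beta and 0 to 5 for the lines. The lowest counts for CM against control came without control PSC5 replicate 1 or 2 or CM PSC4 replicate 2. Signs turned in results that were not called: Itga2 for neratinib against control (log2 0.09) was -0.79 without T6 and -0.21 to 0.40 with single libraries left out, and for PSC5 against PSC4 -0.25 to 0.013. Itgb4 without T6 was -0.22 for neratinib against control and -0.21 for CM against TGF-beta. The causes of these changes were not tested. Itgb6 had 9 counts over the 5 control libraries and Lamb3 1 to 7 a library, so depth limits the precision of their folds.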
